A study of Mus musculus with 22 samples.

Results

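H3K27ac regions that were gained late were followed in G1ER cells (G1E-ER4), a mouse erythroid progenitor line. Peaks of ChIP-seq against acetylated histone H3 lysine 27 (H3K27ac) had been called in 10 libraries, 2 replicates at each of 0, 2, 6, 12, and 24 h of β-estradiol. These lists were merged where they touched, which gave 24299 regions. A region was chosen by its peaks alone, as one with a peak in neither 0 h list, in both 24 h lists and not in both 6 h lists (overlap of at least 1 bp). The rule found 554 regions, which are called late-gained regions here. Other sets of merged regions are given beside them. A total of 279 regions were gained early and kept (a peak in neither 0 h list, both 6 h lists and both 24 h lists), 724 were lost late (both 0 h lists, neither 24 h list and at least 1 of the 6 h lists), and 13217 had a peak in all 10 lists.

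All cells were Gata1-null and expressed GATA1-ER, in which GATA1 is joined to the hormone-binding part of the estrogen receptor, at 0 h as well as later. The 0 h cells had no β-estradiol, and the other groups differed from them by the hours since it was added. G1E-ER4 is a single subclone that expresses the fusion constitutively, so all groups share 1 clonal origin. All were kept in medium with fetal bovine serum, stem cell factor and erythropoietin. The replicates are numbered libraries of the same line, and p-values measure only the spread between them. H3K4me3 was profiled in the same 10 groups and replicates, and CTCF in 1 library each at 0 and 24 h. The lists hold peak positions and a score but no read counts, so the depth is unknown, and no peak in a list does not show that the mark was absent.

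GATA1 is the transcription factor that drives terminal erythroid differentiation. It binds a short GATA sequence at promoters and distal enhancers and recruits coactivators, including histone acetyltransferases, as well as repressive complexes. H3K27ac marks active enhancers and promoters, while H3K4me3 marks mainly promoters, so that a region with H3K27ac and no H3K4me3 is usually read as a distal element. In G1ER cells, restored GATA1 activity lets arrested progenitors leave the cell cycle and express the genes of hemoglobin synthesis and the red cell membrane.

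Windows of 150 bases from 8 late-gained regions show the sequence that these regions carry. Each is the stretch of its region with the most GATA motifs, printed on the + strand of GRCm38 with the motifs of either strand in capitals. The motif searched was GATA with A or T before it and A or G after it, which is written as 6 bases. The first 4 come from regions with no peak up to 6 h and peaks in both lists at 12 h and at 24 h. The other 4 come from regions at genes of the red cell membrane, of amino acid uptake, and of erythropoietin signaling. Each window was picked for its motifs, so that their number in it is no finding. They lie at chr8:123305780-123305929 (Fanca), chr16:97952992-97953141 (Zbtb21), chr9:31272277-31272426 (Prdm10), chrX:150435531-150435680 (Tmem29), chrX:8272100-8272249 (Slc38a5), chr12:76719323-76719472 (Sptb), chr9:107308555-107308704 (Cish), and chr5:34564387-34564536 (Add1).
Fanca: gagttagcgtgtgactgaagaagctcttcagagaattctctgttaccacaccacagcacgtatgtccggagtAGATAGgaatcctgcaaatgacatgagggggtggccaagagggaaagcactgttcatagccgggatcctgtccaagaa
Zbtb21: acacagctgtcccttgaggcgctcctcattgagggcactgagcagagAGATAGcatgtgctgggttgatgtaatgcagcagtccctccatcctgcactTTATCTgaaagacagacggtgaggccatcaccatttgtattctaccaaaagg
Prdm10: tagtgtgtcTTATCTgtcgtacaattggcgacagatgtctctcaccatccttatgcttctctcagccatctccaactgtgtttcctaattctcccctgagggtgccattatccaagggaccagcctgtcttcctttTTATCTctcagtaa
Tmem29: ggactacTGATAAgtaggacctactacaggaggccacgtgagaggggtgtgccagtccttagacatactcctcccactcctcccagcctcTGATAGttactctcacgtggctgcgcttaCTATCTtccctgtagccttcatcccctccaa
Slc38a5: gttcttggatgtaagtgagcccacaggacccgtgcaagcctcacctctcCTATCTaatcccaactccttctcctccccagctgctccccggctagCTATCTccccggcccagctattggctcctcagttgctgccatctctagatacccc
Sptb: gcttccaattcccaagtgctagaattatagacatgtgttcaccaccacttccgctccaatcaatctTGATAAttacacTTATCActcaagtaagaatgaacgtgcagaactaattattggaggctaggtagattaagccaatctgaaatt
Cish: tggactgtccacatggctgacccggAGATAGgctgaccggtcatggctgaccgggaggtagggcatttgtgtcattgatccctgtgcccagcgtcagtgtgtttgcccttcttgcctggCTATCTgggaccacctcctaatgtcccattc
Add1: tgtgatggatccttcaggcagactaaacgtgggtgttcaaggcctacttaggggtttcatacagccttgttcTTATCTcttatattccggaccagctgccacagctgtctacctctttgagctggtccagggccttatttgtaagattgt

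Late-gained regions held peaks more often at 12 h than at 2 h, and most of them had held a peak in some list before 12 h. None had a peak at 0 h and all had peaks at 24 h, since the rule required it. At 2 h, which the rule did not use, 104 of the 554 regions had a peak in replicate 1 and 114 in replicate 2 (19.7% ± 1.28, SD, n = 2). At 12 h, also outside the rule, the numbers were 245 and 250 (44.7% ± 0.638, SD, n = 2). Both 12 h lists were above both 2 h lists, and the gap was larger than the spread between replicates. At 6 h, where the rule capped the number, 97 and 131 regions had a peak.

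Looked at region by region, 255 of the late-gained regions (46%) had no peak at 2 or 6 h, and 299 (54%) had at least 1. A peak in at least 1 list at 2 h was found in 179 regions (32.3%), in both 2 h lists in 39 (7.04%). For 145 regions (26.2%), both 24 h lists were the only ones with a peak. A further 42 regions were without a peak up to 6 h and had one in both 12 h lists, and 68 had one in a single 12 h list. Of the 21011 merged regions seen in 2 or more lists, 2.08% went from neither 2 h list to both 12 h lists. These include the 13217 regions with a peak in all 10 lists, which cannot show this pattern. Among late-gained regions this count was 84 of 554 (15.2%), and among regions gained early and kept it was 38 of 279 (13.6%). The opposite pattern, from both 2 h lists to neither 12 h list, was seen in 1.65% of all regions and in 6 late-gained regions (1.08%). It was seen in 1 region gained early and kept (0.358%). Regions gained early and kept held a peak in 58.2% ± 3.8 (SD, n = 2) of cases at 2 h already.

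**Figure D1:**
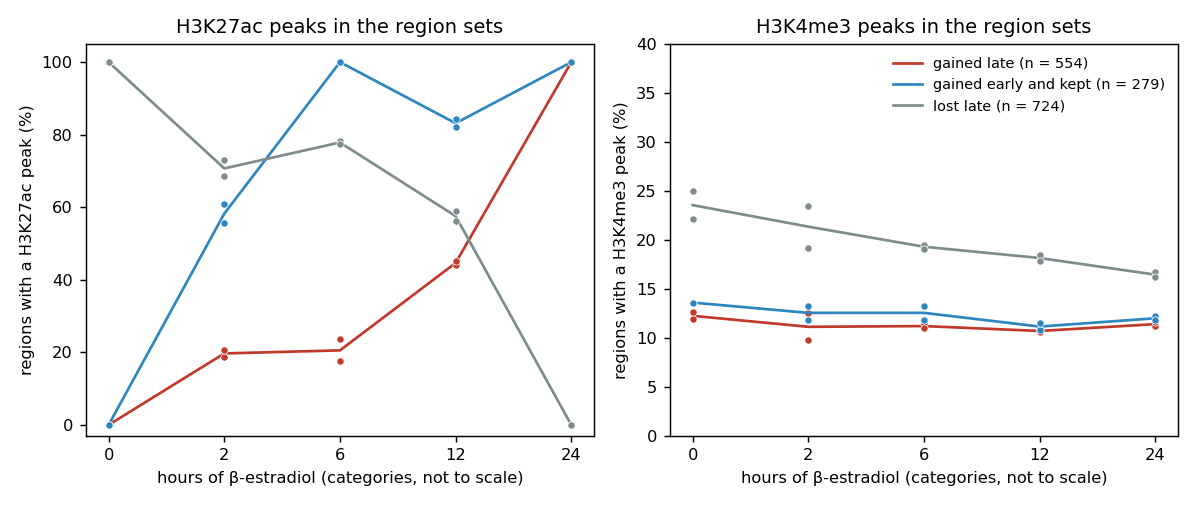
Share of regions (%) with an H3K27ac peak (left) or an H3K4me3 peak (right) against hours of β-estradiol for regions gained late, gained early and kept, and lost late. Points are single lists and lines join the means of 2 replicates; the H3K27ac shares at 0, 6, and 24 h were set by the rules, while those of the late-gained regions at 2 and 12 h (19.7% and 44.7%) were not, and their H3K4me3 shares stayed between 9.75% and 12.6%.

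**Figure D2:**
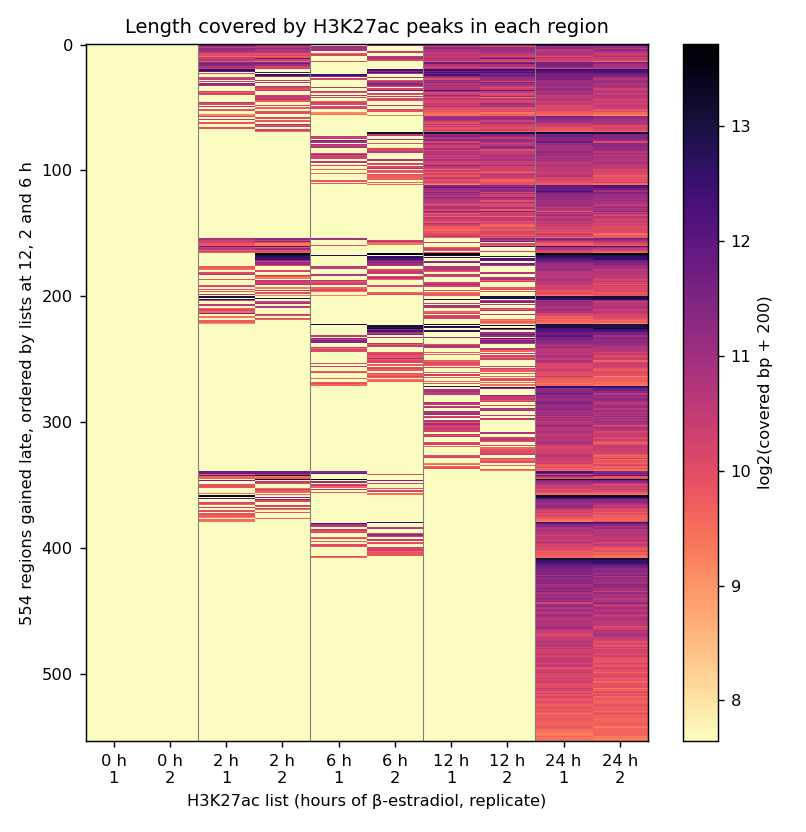
Length covered by H3K27ac peaks, as log2(covered bp + 200), in each of the 554 late-gained regions (rows) and each of the 10 lists (columns). The 145 regions with peaks at 24 h alone form the block at the bottom, and many other rows hold a peak in only 1 of the replicates of a time point.

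These peaks ranked low. The deposited score ranks peaks within a list, and the median late-gained region stood at the 14.4th percentile of 24 h replicate 1 and at the 13.3rd of replicate 2. The mean of these percentiles had a median of 13.8 (range 0.563 to 73) over the 554 regions, against 61.8 over regions with a peak in all 10 lists. The former had to lack a called peak at 0 h and the latter had to be called in every list. Their gap in rank is therefore not independent of how the sets were chosen. The lists start at a score of 50, and the lower of both 24 h scores was at most 60 in 225 late-gained regions and at most 100 in 486. The quartiles of the late-gained regions were 9 and 20.8, and the groups just outside the rule overlapped this range, with medians below and above 13.8. The 1556 regions that missed it by a peak in only 1 of the 24 h lists had a median percentile of 7.71. The 270 regions that missed it by a peak in 1 of the 0 h lists had a median of 16.1 at 24 h. The 279 regions gained early and kept, which differ from the late-gained by a peak in both 6 h lists, had a median of 21.8 at 24 h. The 228 late-gained regions with a peak in 1 of the 6 h lists had a median of 10.3 there, and the early regions one of 16.1.

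Late-gained regions were also short. The median merged region spanned 1738 bp (range 408 to 13912), close to the 1796 bp of regions lost late. It was 2218 bp for regions gained early and kept and 3162 bp for regions with a peak in all 10 lists. A merged region joins its peaks over all lists, so sets that must have peaks in more lists can span more by construction. Among the regions with a peak, the median covered length was 957 and 1060 bp in the 2 h lists, 1217 and 1193 bp in the 12 h lists, and 1392 and 1239 bp in the 24 h lists. Regions with a peak at 24 h alone covered a median of 1050 bp there and stood at a median percentile of 9.88. The 42 regions that were present from 12 h on covered 1519 bp and stood at 18.6.

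One property of the lists touches the strongest of these regions. No H3K27ac peak in any list was longer than 8973 bp and no H3K4me3 peak longer than 9200 bp. Of the late-gained regions, 29 (5.23%) held a peak of 5 kb or more in some list, and in many of them such long peaks came and went between replicates. At Hmga1, a chromatin architectural protein, the region around the TSS (chr17:27553515-27562320) was covered by H3K27ac peaks for 0 and 0 bp at 0 h, 7008 and 6997 bp after 2 h, 8458 and 0 bp after 6 h, 8668 and 6935 bp after 12 h, and 6937 and 6933 bp after 24 h. H3K4me3 covered between 6057 and 6922 bp of it in all 10 lists. At Lamtor4, a subunit of the lysosomal Ragulator complex, the region (chr5:138254383-138265167) had 10235 bp in 1 of the 2 h lists, 10517 bp in 1 of the 6 h lists, 9027 and 9564 bp after 24 h, and no peak in the other 6 lists. Whether the caller or a later step left out longer peaks is not given in the sources used here, and its part in these values was not tested. Where one of these 29 regions is named below this is said beside it, and the peak counts at 2 and 12 h, the share at a TSS and the GATA density are also given for the other 525. Of those 525, 83 (15.8%) went from neither 2 h list to both 12 h lists and 5 (0.952%) went the opposite way.

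Among regions within 50 kb of a protein-coding TSS, 8 led by the score at 24 h. Apart from Hmga1 and Lamtor4, 4 of them were of the long kind, at Popdc2 (chr16:38369330-38377576), a cAMP-binding membrane protein, at Myl6 (chr10:128491047-128497191), a myosin light chain, near Sec31a (chr5:100425658-100432579), a coat protein of transport vesicles, and at Sec14l1 (chr11:117111627-117117520). The Sec14l1 region had 5524 and 5894 bp after 24 h and no peak before. H3K4me3 was present at all 4 in all 10 lists. The other two were Fn3k and Adcy7. A further long region ranked among these but lay 111 kb from the nearest TSS, that of Kit, the stem cell factor receptor (chr5:75457967-75464028), and was singled out after its values were seen. It had 6062 bp in 1 of the 12 h lists, 5451 and 5313 bp after 24 h, and no peak in the other 7 lists.

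At Fn3k, which encodes the kinase that removes sugar adducts from proteins, the late-gained region held the TSS (chr11:121432514-121435957). Its H3K27ac peaks covered 0 and 0 bp at 0 h, 875 and 0 bp after 2 h, 0 and 1591 bp after 6 h, 2872 and 2436 bp after 12 h, and 3234 and 3285 bp after 24 h, so that both 12 h lists were above every list up to 6 h. H3K4me3 was already there, with 1186 and 1180 bp at 0 h and 1668 and 1737 bp after 24 h, which did not overlap. The H3K4me3 difference was 0.46 (SE 0.09) on the log2(covered bp + 200) scale with an adjusted p of 0.0933 (limma), which missed the threshold of 0.05. At Adcy7, an adenylyl cyclase, H3K27ac covered 4174 bp in 1 of the 6 h lists, 3870 and 3433 bp after 24 h, and nothing in the other 7 lists (chr8:88287341-88291548).

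The named regions with no peak up to 6 h and peaks from 12 h on lay outside promoters. Of the 42, the 6 with the highest score percentile and a protein-coding TSS within 50 kb were named, and these were chosen by their peaks at 12 and 24 h, so their values there are a description. The region in Fanca, a component of the Fanconi anemia DNA repair complex, covered 1011 and 1040 bp after 12 h and 1638 and 1819 bp after 24 h (chr8:123305399-123307268, overlapping exons 11.3 kb from the TSS). An intronic region of Glg1, a Golgi glycoprotein, covered 791 and 815 bp and then 1201 and 1225 bp (chr8:111252270-111253735, 5.48 kb from the TSS). In each of these regions both 24 h lists were above both 12 h lists.

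Zbtb21 and Prdm10 encode zinc finger transcription factors. The region in Zbtb21 (chr16:97951894-97954924, exonic, 7.7 kb from the TSS) covered 2438 and 962 bp after 12 h and 3031 and 2884 bp after 24 h. The intergenic region 41.5 kb from the TSS of Prdm10 (chr9:31271649-31273631) covered 1463 and 1519 bp and then 1219 and 1983 bp. Here the 12 and 24 h lists overlapped. An intronic region of Jade2, a PHD finger protein of histone acetyltransferase complexes, covered 685 and 889 bp and then 1258 and 1081 bp (chr11:51840511-51841881, 15.8 kb from the TSS). The last of the 6, in Tmem29 on the X chromosome (chrX:150434122-150436234), covered 889 and 867 bp and then 2113 and 1209 bp. None of the 6 had H3K4me3 at 0, 2, 6, or 12 h, and 1 of them, Tmem29, had it at 24 h.

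**Figure D3:**
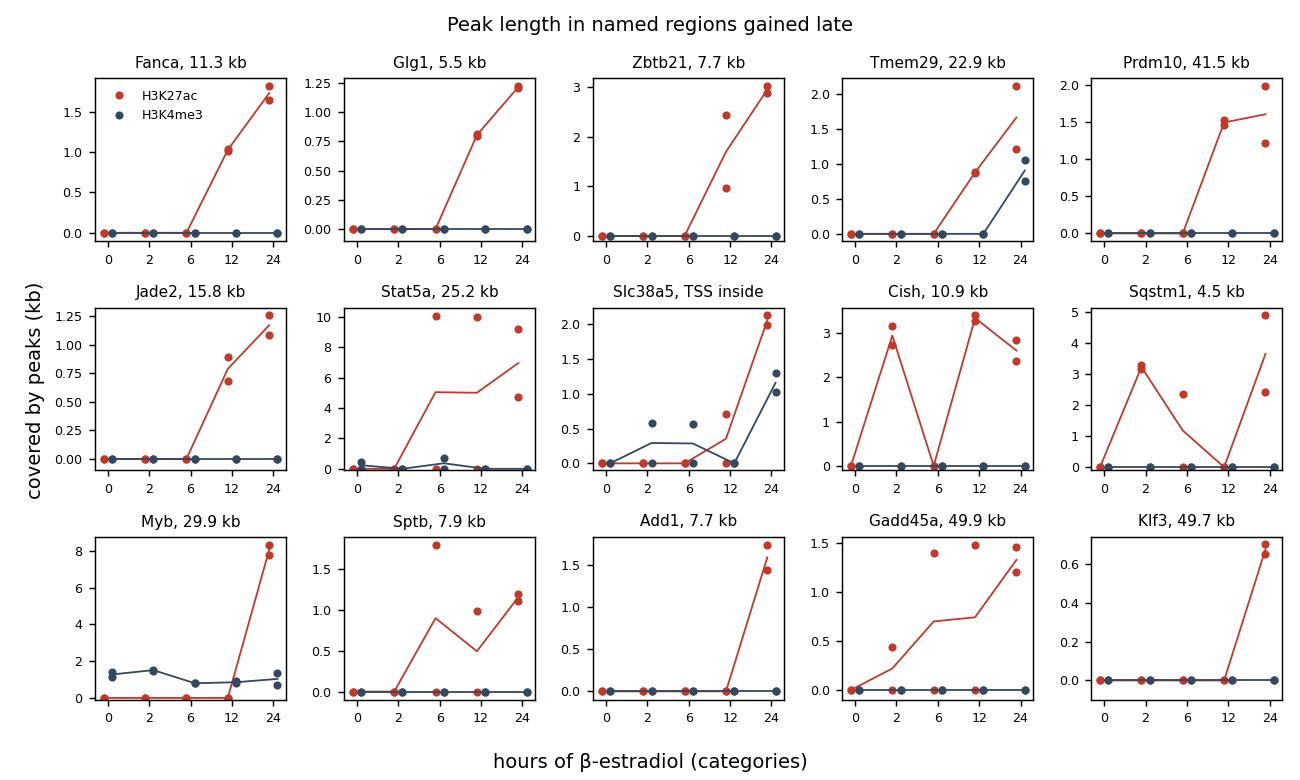
Length covered by H3K27ac and H3K4me3 peaks (kb) in 15 named late-gained regions against hours of β-estradiol, with the nearest gene and the distance to its TSS above each panel. Points are single lists, lines join means of 2 replicates, and the vertical scales differ between panels. The first 6 regions (Fanca to Jade2) have no H3K27ac peak up to 6 h. At Tmem29, H3K4me3 is in the 24 h lists alone, while H3K27ac is in both 12 h lists already. At Slc38a5, H3K4me3 covers 585 bp in a 2 h list and 571 bp in a 6 h list, without H3K27ac, and is in both 24 h lists.

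The length of H3K27ac at 12 h was compared with that at 2 h in a fit that left out the lists used by the rule. With limma on log2(covered bp + 200), 0.158% of the 20190 regions tested were longer at 12 h and 0.322% shorter, at an adjusted p under 0.05. Of the late-gained regions, 380 were tested and 174 had no peak in these 4 lists. A total of 2 were longer and 2 shorter. With a pseudocount of 50 bp in place of 200, none of the 4 calls held, and 0 of all 20190 regions tested were called longer. At an unadjusted p under 0.05, 93 of the 380 (24.5%) were called in either direction, against 9.2% of all regions tested. The latter include the 13217 regions with a peak in all 10 lists, whose length cannot fall to 0 in a list. These shares are thus not drawn from like regions, and no conclusion is drawn from their gap. A region had to have a peak in 1 of the 4 lists to be tested, and a fit to lengths that are often 0 departs from the normal noise limma assumes.

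The longer regions were an intronic one in Daam1, a formin that assembles actin filaments, and an intergenic one near the predicted gene Gm8332. The Daam1 region (chr12:71891406-71895661, 60.2 kb from the TSS) covered 0 and 0 bp after 2 h and 4071 and 3771 bp after 12 h, a log2 difference of 4.36 (SE 0.23, adjusted p = 0.0309, limma). It also lacked a peak at 0 and 6 h and covered 3238 and 4068 bp after 24 h. The Gm8332 region (chr12:88213097-88222093) covered 0 and 0 bp after 2 h and 8755 and 8224 bp after 12 h, a log2 difference of 5.44 (SE 0.15, adjusted p = 0.0134, limma), and is 1 of the 29 with long peaks.

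The shorter regions went from both 2 h lists to neither 12 h list, and the rule required their peaks at 24 h. In Rgs10, a regulator of G protein signaling, the region (chr7:128401775-128405489) covered 3605 and 3509 bp after 2 h, 3513 and 0 bp after 6 h, 0 and 0 bp after 12 h, and 3327 and 3299 bp after 24 h (log2 difference -4.23, SE 0.23, adjusted p = 0.0365, limma). A region in an intron of Mgat4b, 4.47 kb from the TSS of Sqstm1, the autophagy receptor p62, covered 3297 and 3146 bp after 2 h, 2358 and 0 bp after 6 h, 0 and 0 bp after 12 h, and 4879 and 2410 bp after 24 h (chr11:50215302-50220320). Its log2 difference was -4.1 (SE 0.25, adjusted p = 0.045, limma). Both regions thus had called peaks at 2 and 24 h and none at 12 h. In Rgs10 the scores were 60.50 and 61.52 at 2 h and 77.55 and 60.92 at 24 h. In the 6 h list with a peak the score was 64.95. All of these lie near the lowest score in the lists. Near Sqstm1 the scores were more mixed, with 55.02 and 134.96 at 2 h and 65.97 and 161.73 at 24 h. In the 6 h list with a peak the score there was 148.42. The missing 12 h peaks do not show that the mark left either region.

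Late-gained regions were mostly distal. A protein-coding TSS lay inside 27 of the 554 (4.87%, 95% exact binomial interval 3.24 to 7.01, which covers counting error only), and inside 3.43% without the regions with long peaks. Exons of protein-coding genes were overlapped by a further 145 (26.2%), 231 lay in introns (41.7%), and 151 were intergenic (27.3%). Over all merged regions, 33.4% held a TSS, 15% overlapped exons, 23.3% lay in introns and 28.3% were intergenic. The regions gained early and kept were alike in this, with 5.02% at a TSS. A TSS lay inside 9.81% of the regions lost late and 55% of those with a peak in all 10 lists. The median late-gained region was 19 kb from the nearest protein-coding TSS, and 447 (80.7%) lay within 50 kb, against 79.6% of all merged regions. A total of 24 lay within 1 kb of a region with a peak at 0 h, while 268 (48.4%) lay within 10 kb of one. Another late-gained region lay within 10 kb of 14 of them. They lay on all autosomes and the X chromosome, from 1.33% to 3% of the regions of each.

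**Figure D4:**
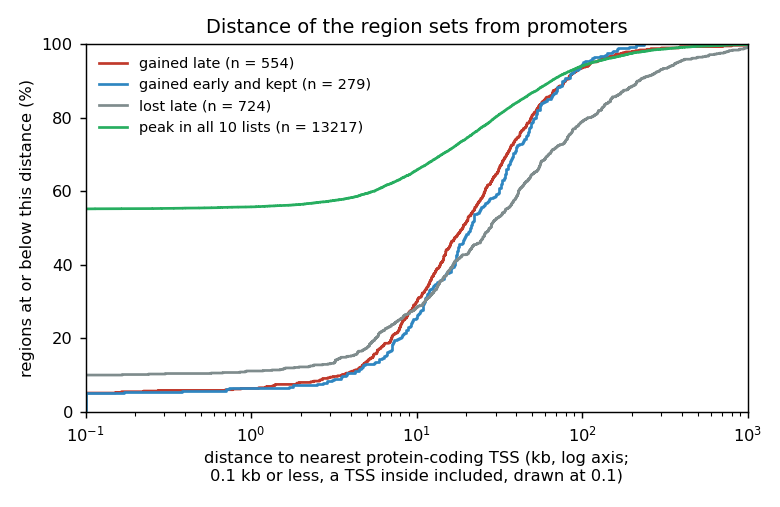
Cumulative share of regions (%) against the distance to the nearest protein-coding TSS (kb, log axis) for the late-gained regions and the sets beside them. The curves of regions gained late and gained early run close together, with medians of 19 and 21.2 kb, while 55% of the regions with a peak in all 10 lists hold a TSS.

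Most of the 27 late-gained regions with a promoter had H3K4me3 from the start. In 20 of them both 0 h lists held an H3K4me3 peak and in 21 both 24 h lists did, and 6 had none at 0 or 24 h. All 9 of the promoters with long H3K27ac peaks, among them the ribosomal protein gene Rpl14, the actin nucleator gene Actr3 and the immediate early gene Ier2, had H3K4me3 in both 0 h lists. Of the 18 others, 11 had it and 7 did not.

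Slc38a5 was the promoter that went from neither 0 h list to both 24 h lists with H3K4me3. It encodes an amino acid transporter, and its promoter is among those the study targeted for capture. The region (chrX:8270737-8272954) had no H3K27ac peak in any list up to 6 h, 0 and 707 bp after 12 h, and 1988 and 2127 bp after 24 h, where it stood at the 48.7th and 40.5th percentile of the scores. H3K4me3 covered 0 and 0 bp at 0 h, 585 and 0 bp after 2 h, 0 and 571 bp after 6 h, nothing at 12 h, and 1296 and 1021 bp after 24 h. Both 24 h lists were above the other 8, but the difference from 0 h (2.76, SE 0.81, log2 scale) had an adjusted p of 0.232 (limma).

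No rise of H3K4me3 over the late-gained regions as a whole was seen. A peak of H3K4me3 was found in 66 and 70 of the 554 at 0 h and in 62 and 64 at 24 h, and in none of the 10 lists for 469 (84.7%). In 43 it was in all 10 lists, of which 15 were regions with long H3K27ac peaks. In these 43, the median H3K4me3 length was 1410 and 1244 bp at 0 h and 1264 and 1343 bp after 24 h, which overlapped. Over all 24299 regions, 0.193% went from neither 0 h list to both 24 h lists with H3K4me3 and 2.05% went the opposite way. Among the late-gained regions, 2 gained it in this sense (Slc38a5 and Tmem29) and 2 lost it, both of them of the long kind.

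In the limma fit to all 10 H3K4me3 lists, 0.505% of the 13255 regions tested were longer at 24 h than at 0 h and 1.43% were shorter. Of the 554, 77 had H3K4me3 in at least 2 lists and were tested, and 477 were not. Their median log2 difference was -0.0483, against -0.023 over all regions tested. The 1 region called longer was that in Tmem29, where H3K4me3 covered 0 bp in the 8 lists up to 12 h and 1055 and 749 bp after 24 h (log2 difference 2.45, SE 0.31, adjusted p = 0.0155, limma). Without either of the 24 h lists this count of 1 fell to 0. The 2 called shorter held H3K27ac peaks of 5 kb or more, and 0 were called shorter without 24 h replicate 2. One lay 101 kb from Max (chr12:77063303-77072307), the partner of MYC, and H3K4me3 covered 3238 and 3827 bp of it at 0 h and 1935 and 1917 bp after 24 h (log2 difference -0.81, SE 0.09, adjusted p = 0.0116, limma). The other lay in an intron of Igf2bp1, an RNA-binding protein of fetal and proliferating cells (chr11:95985785-95994360). There H3K4me3 covered 2672 and 2559 bp at 0 h and 1888 and 1611 bp after 24 h (log2 difference -0.53, SE 0.09, adjusted p = 0.0433, limma), while H3K27ac covered 7680 and 8041 bp after 24 h.

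Genes of red cell function were then taken from 10 lists drawn up from general knowledge, and each gene was asked for a late-gained region within 50 kb of its TSS. Of all 21924 protein-coding genes, counted by symbol, 1023 (4.67%) had one, and of the 9245 genes with H3K4me3 over the TSS in both 0 h and both 24 h lists, 685 (7.41%) did. None of 14 heme synthesis genes, 9 globin genes or 15 genes of iron uptake and handling had one. All of these genes had, within 50 kb, a region that carried a peak in all 10 lists, as did 62.6% of all protein-coding genes and 97.7% of those with H3K4me3 over the TSS.

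Red cell membrane and skeleton genes had 4 of 23, namely Add1, Sptb, Rhd, and Kel. The Add1 region, 7.74 kb upstream of the TSS of α-adducin, had no peak up to 12 h and 1746 and 1443 bp after 24 h (chr5:34564299-34566135). The Sptb region, 7.87 kb upstream of the TSS of erythroid β-spectrin (chr12:76718415-76720298), covered 0 and 1802 bp after 6 h, 0 and 989 bp after 12 h, and 1114 and 1201 bp after 24 h. The region near Rhd, the Rh blood group protein, lay in an intron of Maco1, 23.5 kb upstream (chr4:134839193-134841006). It covered 1607 and 1598 bp after 12 h and 1664 and 1485 bp after 24 h, with no peak before. The region near Kel, the Kell blood group protein, held the TSS of Llcfc1 18.2 kb away.

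Erythropoietin signaling had 3 of 17 genes. Next to Cish, an inhibitor of cytokine signaling that is itself induced by STAT5, an intergenic region 10.9 kb from the TSS (chr9:107306903-107310311) covered 2714 and 3159 bp after 2 h, 0 and 0 bp after 6 h, 3391 and 3269 bp after 12 h, and 2833 and 2365 bp after 24 h. Its scores were 83.1 and 116.97 at 2 h but only 54.24 and 50.24 at 12 h, in lists that start at 50. The missing 6 h peaks thus do not show that the mark left. The region that overlaps exons of Stat5a and Stat3 (chr11:100884545-100894735) covered 0 and 10100 bp after 6 h, 0 and 10023 bp after 12 h, and 4745 and 9188 bp after 24 h, and is 1 of the 29 with long peaks. A region 44.1 kb from Akt1, a kinase of survival signaling, lay in Adssl1.

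Transcription factors of the erythroid program had 2 of 23. A 24 h peak of 705 and 652 bp lay 49.7 kb upstream of Klf3, a repressor of the KLF family (chr5:64752974-64753691). Zbtb7a, a silencer of fetal globin, had regions on both sides. The one in an intron of Creb3l3, 39.3 kb upstream (chr10:81093574-81096987), covered 0 bp at 0 and 2 h, 0 and 1334 bp after 6 h, 2155 and 2555 bp after 12 h, and 2815 and 3143 bp after 24 h, where it stood at the 52.7th and 41.7th score percentile. The one at the TSS of Dapk3, 45.7 kb away, had peaks in both 2 h lists and in both 12 h lists as well.

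Progenitor, myeloid and mast cell genes had 2 of 28. A region 29.9 kb upstream of Myb, the transcription factor that keeps progenitors proliferating (chr10:21190840-21199335), covered 7792 and 8327 bp after 24 h and had no peak before, while H3K4me3 covered from 724 to 1539 bp of it in all 10 lists. It is 1 of the 29 with long peaks, as is the region 34.9 kb from Lyl1, at Ier2. In the remaining lists, autophagy and survival had 1 of 20 (Sqstm1), the cell cycle 2 of 18 (Aurkb and Gadd45a), and glycolysis, carbonic anhydrases and antioxidants 2 of 20 (Blvrb and Hmox1). The region near Gadd45a lay 49.9 kb from the TSS and that near Hmox1, the heme-degrading oxygenase, 40.8 kb. Of 41 promoters captured in the study, Slc38a5 alone had a late-gained region within 50 kb.

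CTCF, which anchors chromatin loops, was compared between 1 list at 0 h and 1 at 24 h, with no replicate check and no test. The lists held 33193 and 41473 peaks, so that more regions of any kind have a CTCF peak at 24 h. A CTCF peak was found in 97 late-gained regions (17.5%) at 0 h and in 130 (23.5%) at 24 h. It was at 24 h only in 37 (6.68%), against 6.99% of all regions, and at 0 h only in 4 (0.722%), against 1.33%. Of those with CTCF at 24 h only, the highest CTCF scores were 276 at the Sptb region, 236 at an intergenic region 12 kb from Ccdc32 (chr2:119015363-119017373) and 205 in an exonic region of Trrap, a subunit of histone acetyltransferase complexes (chr5:144807291-144809299). The Trrap region had no H3K27ac peak up to 6 h, 688 and 1235 bp after 12 h, and 1082 and 1813 bp after 24 h.

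GATA motifs were denser in late-gained regions than in those with the mark throughout, and densest near their centers. Over both strands, there were 2.61 GATA motifs per kb in late-gained regions, 2.44 in regions gained early and kept, 2.48 in regions lost late and 1.9 in regions with a peak in all 10 lists. Without the long regions the late-gained value was 2.79. Many of the last hold promoters, whose base composition differs, and without a TSS the densities were 2.72, 2.54, 2.66, and 2.28. The reversed sequence of the motif, which has the same bases, gave 1.68, 1.58, 1.73, and 1.46 per kb in the full sets. Without a TSS it gave 1.73, 1.62, 1.83, and 1.64. GC content was 46.8% in late-gained regions and 48.1% in regions with a peak in all 10 lists. A motif was present in the central 1 kb of 509 late-gained regions (91.9%), against 93.5% of regions gained early and kept, 89.1% of regions lost late, 86.5% of TSS-free regions with a peak in all 10 lists and 80% of all merged regions. The reversed sequence was present in 77.1% of late-gained and 69% of all merged regions.

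Within 400 bp of the center of late-gained regions there were 3.2 GATA motifs per kb, and 2.13 at 1200 to 2000 bp from it, a ratio of 1.51. The ratio was 1.51 in regions gained early, 1.28 in regions lost late and 1.18 in TSS-free regions with a peak in all 10 lists. The sets differ in length, with medians of 1738 bp for late-gained regions and 3162 bp for all regions with a peak in all 10 lists. The outer stretch lies outside most late-gained regions but often partly inside the longer ones, so the ratios are not strictly alike across sets. For the reversed sequence it was 0.938 in late-gained regions. In the printed windows, 2 motifs stand close together at Sptb, and the Prdm10 window also holds an E-box and GATA composite (CTG, then 8 or 9 bases, then GATAA), the site bound by complexes of GATA1 and TAL1. The densities are a description, and a match is not a bound site.

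**Figure D5:**
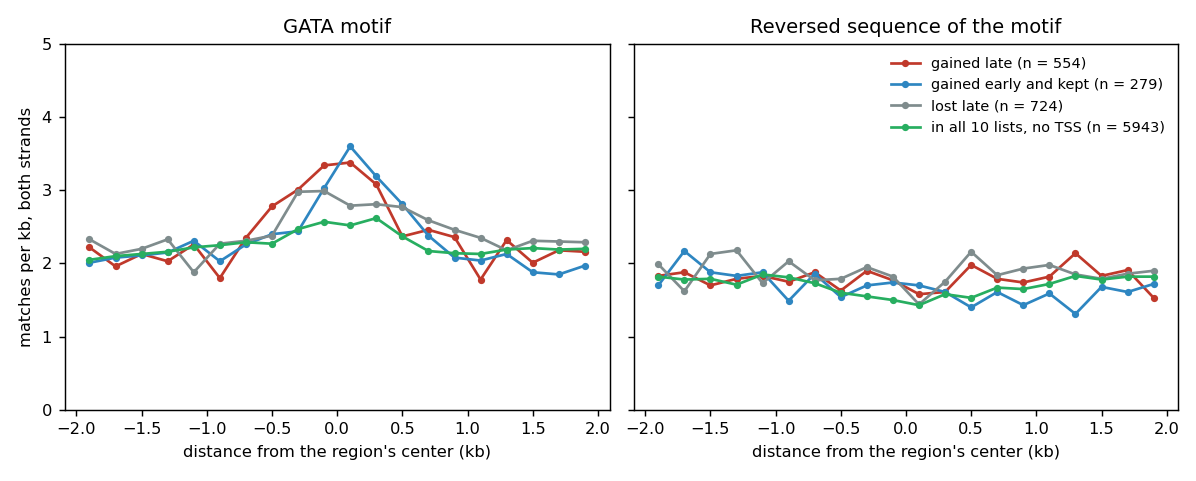
GATA motifs (left) and their reversed sequence (right) per kb, both strands, in bins of 200 bp against the distance from the region's center (kb), for 4 sets of regions. The GATA motif rises to 3.38 per kb at the center of late-gained regions from 2.13 at 1200 to 2000 bp from it, while the reversed sequence does not rise.

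The other motifs were counted in the same way. The composite was found in the central 1 kb of 15.2% of late-gained regions and of 10.8% of all merged regions. It was found in 9.29% of regions with a peak in all 10 lists, in 15.2% of TSS-free regions with a peak in all 10 lists and in 15.7% of regions lost late. CCACCC, the core of sites for KLF factors, was found in 55.2% against 59% of all merged regions. TGTGGT, the core of RUNX sites, was found in 56.9% against 51.5%. It was found in 55.8% of TSS-free regions with a peak in all 10 lists, 56.5% of regions lost late and 59.5% of regions gained early and kept. TGAGTCA, bound by AP-1 and NF-E2, was found in 18.1% against 17.7%, and in 24.2% of regions lost late. GAGGAAGT, an ETS site, was found in 7.04% against 8.69%, and CACGTG, an E-box, in 14.3% against 16.9%. The 145 regions with peaks at 24 h alone and the 42 present from 12 h on resembled the whole, with 2.63 and 2.76 GATA motifs per kb.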

How the data were processed

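Peak lists of H3K27ac (10), H3K4me3 (10) and CTCF (2) in G1ER cells were grouped by antibody and hours of β-estradiol from the sample titles. In the case of H3K27ac and H3K4me3, alignment by the authors to mm10 used Bowtie2, and they kept unique reads and called peaks per library with MACS without its model step. The MACS version, control and threshold are not given in the sources used here. The score that the authors deposited with a peak appears to be a scaled negative log10 p of MACS, as every list starts at 50, and it served only to rank peaks within a list. Depth per sample is unknown, so no counting precision can be given for a peak.

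Regions, overlaps and distances used Python 3.11.15 (numpy 2.4.6, pandas 2.3.3) and 1 TSS for each of 21951 protein-coding genes of GENCODE M21 (GRCm38, the build of the lists). Motifs and windows were read from GRCm38 with pysam 0.24.0. Covered length per region, log2(covered bp + 200), was fitted with limma 3.58.1 in R 4.3.3 (lmFit, eBayes with trend, two-sided, Benjamini-Hochberg over all regions tested, threshold 0.05). For H3K27ac the 4 lists at 2 and 12 h entered, for H3K4me3 all 10. Regions needed a peak in at least 2 of the mark's 10 lists, and for H3K27ac in 1 of the 4 fitted. The step was tested on simulated lengths with normal noise. These held no switches between 0 and a peak from list to list, so the simulation does not vouch for regions with such switches.

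Named were, among regions with a protein-coding TSS within 50 kb, the 8 with the highest mean 24 h score percentile, the 6 highest among those without a peak up to 6 h and with peaks in both 12 h lists, the 5 highest with a TSS inside, those whose nearest gene is in a gene list, and, at any distance, those called in a fit and the 3 with the highest CTCF score at 24 h only. Regions within 50 kb of a gene of a list are also given. The genes Rpl14, Actr3 and Ier2 and the region nearest to Kit were named after their values were seen. The regions and the lists were chosen with earlier results of these data known. Alternatives were a score filter, equal numbers of peaks, merging within 500 bp, coverage of at least 50%, pseudocounts of 50 and 1000 bp, other minimum numbers of lists (1 and 5), a replicate block, length scaling, other sets of lists, other TSS definitions, leaving out each list, and, added after seeing the data, leaving out regions with peaks of 5 kb or more.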

Additional observations from a re-analysis of the deposited data

How the results depend on the processing

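The number of late-gained regions was 554 and stayed within 1.5 times of it when peaks were merged within 500 bp, had to cover 50% of the region, were cut to equal numbers per list, or when regions with long peaks were left out. Keeping peaks that scored at least the median of all lists together gave 151. Leaving out 1 list gave from 424 to 1471, with 1207 without 24 h replicate 1 and 1471 without 24 h replicate 2, since 1 list then had to carry the 24 h call. The share with a protein-coding TSS, 4.87%, became 33.8% with the score filter, 8.44% with the 50% coverage, 10.1% with TSSs of any gene, and 15.2% with every protein-coding transcript start. Leaving out 1 list gave from 3.77% to 7.62%.

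The 2 regions longer at 12 h than at 2 h became 17 with the score filter, 11 with the 50% coverage, 0 with a pseudocount of 50 bp, 6 with 1000 bp, 1 with at least 5 lists, 24 with all 10 lists in the fit, and 1 without regions with long peaks. Leaving out 1 list gave from 2 to 146, with 146 and 139 without 12 h replicate 1 or 2. The lone list was then assumed to vary like the others. The 2 regions shorter at 12 h, in Rgs10 and near Sqstm1 in the fit as reported, became 0 with a pseudocount of 50 bp. Their number rose when 1 of the 2 h lists was left out and fell when 1 of the 12 h lists was. The 1 region with longer H3K4me3 at 24 h stood beside 67 of all 13255 regions tested. It became 0 with the score filter (15 of all 7125 tested) and 5 with the 50% coverage (67 of 13255). There were 2 with equal numbers of peaks (69 of 12639) and 0 with at least 5 lists (47 of 12361). With only the 4 lists at 0 and 24 h there were 3 (78 of 13255). Leaving out 1 list gave from 0 to 1, with 0 without 24 h replicate 1 or 2. The cause of these changes was not tested.

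The replicate numbers did not pair the lists. The difference between replicates at one time correlated with that at another by -0.029 to 0.017 over regions for H3K27ac and by -0.131 to 0.048 for H3K4me3. With a replicate block 0 late-gained regions were longer and 0 shorter for H3K27ac, and 0 of all 20190 regions tested were longer. For H3K4me3, 1 late-gained region was longer and 1 shorter, beside 44 of all 13255 regions longer. Depth, which these lists do not give, limits what a missing peak can show.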
